A study of Mus musculus with 12 samples.

Results

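Interferon-stimulated genes are the genes that cells switch on after an interferon binds its receptor. The 47 genes described here were taken by name, out of 56748 genes in the deposited table. Messenger RNA was measured in whole brain from 12 adult mice of the inbred strain C57BL/6, with 1 library per animal and 2 females and 2 males in each of 3 groups. Mice labelled LPS+DMA received lipopolysaccharide (LPS, a bacterial outer membrane component) together with N,N-dimethylacetamide (DMA, an organic solvent) at a dose that the labels leave out. Mice labelled LPS received LPS without DMA, and control mice labelled PBS received phosphate-buffered saline. LPS was given into the peritoneal cavity at 0.5 mg/kg once a day for 7 days in both LPS groups, and brains were taken on day 7. Repeated peripheral LPS is a model of inflammation that starts outside the brain. No group received DMA without LPS in the samples used here, so an effect of DMA can be read only on top of LPS.

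Type I interferons act through receptor-bound Janus kinases, and a complex that contains STAT2 and IRF9 binds the interferon-stimulated response element in target promoters. Type II interferon acts mainly through the gamma-activated site. The target genes encode antiviral effectors, RNA sensors, antigen presentation factors and components of the same pathway, and in brain they are known to respond in microglia, astrocytes and endothelial cells.

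Values are FPKM (read fragments corrected for gene length and for library depth), a scale on which levels of different genes can be compared, and differences are in log2(FPKM + 1). That scale understates the fold change of genes near or below 1 FPKM. The libraries held 27533386 to 41368753 counted reads. A gene was tested where it reached 0.5 FPKM in at least 2 of the 12 libraries, which kept 19571 genes and 42 of the 47 members. Oasl1, Oas2, Mx1, Zbp1 and Ifi44 missed this limit, and none of them had more than 73 reads in any library. Oas1a reached the limit in LPS brains alone. Adjusted p-values are from limma with Benjamini-Hochberg adjustment over all 19571 genes, with 0.05 as the threshold, and a gene is said to have risen or fallen only past it.

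The libraries differed in brain region markers, which touches every comparison of the groups. Gabra6, a GABA receptor subunit that marks granule cells of the cerebellum, was at 114 FPKM in LPS female 1, 15.6 FPKM in LPS male 1, 90.5 FPKM in LPS male 2 and 74.6 FPKM in PBS female 1, and at most at 0.170 FPKM in the other 8 libraries. The summed level of the 8 forebrain neuron markers was 863 to 1363 FPKM in LPS+DMA brains, 18.5 to 1039 FPKM in LPS brains and 531 to 954 FPKM in PBS brains. Brain identity itself was clear, as the general neuron markers summed to 694 FPKM or more in each of the 12 libraries. The labels give whole brain for all animals. Medians over the members are therefore also given without the 4 libraries that carry cerebellar signal. So are the LPS+DMA against LPS differences of the members that fell. Leaving out these 4 libraries keeps LPS female 2 as the only LPS library.

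DMA with LPS was accompanied by lower interferon-stimulated gene expression than LPS without DMA. Of the 42 tested members, 16 fell in LPS+DMA against LPS brains and 0 rose, where 3.88% of all tested genes fell, 5.79% rose and 9.67% changed in either direction. The 16 are Isg15, Bst2, Ifit3, Ifit3b, Ifi27, Ifi27l2a, Ifi35, Gbp2, Gbp3, Igtp, Ifitm3, Lgals3bp, Irf7, Irf9, Trim30a and Parp9. Their differences ran from -2.19 for Ifi27l2a to -0.41 for Parp9, with a median of -0.88, and the ratio of mean FPKM between LPS+DMA and LPS brains ran from 0.105 to 0.627. Among all 42 tested members 41 had a difference below 0 and the median was -0.43, against a median of 0.01 and 48.8% below 0 over all tested genes. The 4 LPS+DMA libraries lay below the 4 LPS libraries for 19 members, where 5.98% of all tested genes did so.

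**Figure D1:**
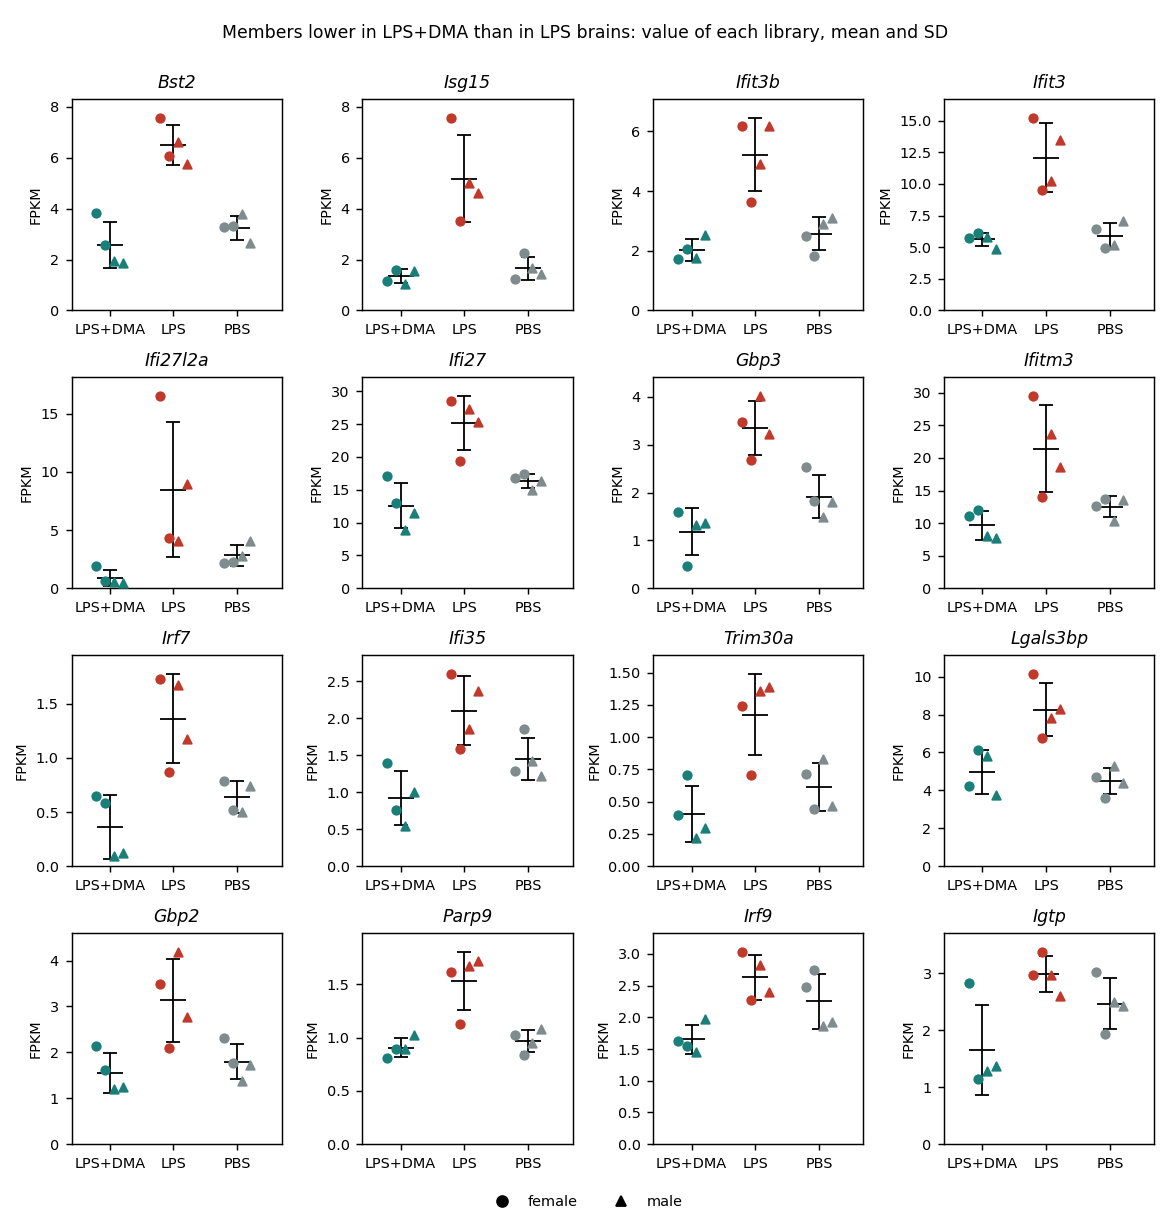
FPKM of the 16 members that fell in LPS+DMA against LPS brains, with 1 point per library (circles females, triangles males) and the mean ± SD of 4 libraries per group, each panel on its own axis starting at 0. LPS points stand highest in most panels, for example 3.51 to 7.55 FPKM for Isg15 against 1.04 to 1.60 FPKM in LPS+DMA brains, while LPS+DMA and PBS points overlap in every panel but that of Ifi27l2a, where LPS+DMA brains (0.498 to 1.90 FPKM) lie below PBS brains (2.19 to 4.09 FPKM).

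The count depended on which libraries and genes entered the fit. With only the LPS+DMA and LPS libraries in the fit, 0 members and 5 genes in all were called by limma, and 22 members had an unadjusted p under 0.05. Without a filter on low values 3 of 47 members were called, among 83 genes in all. The deposited values are not scaled to equal totals. FPKM times gene length in kb summed to 1029078 to 1103278 in LPS+DMA, 916956 to 962575 in LPS and 951911 to 988684 in PBS libraries. With the libraries rescaled to equal totals 23 members fell and 0 rose, where 11.7% of all tested genes fell and 3.01% rose, and the median over all genes was -0.11 in place of 0.01. Without LPS female 1, without LPS male 1 or without LPS male 2, 0 members were called by limma, with 22, 24 and 20 at an unadjusted p under 0.05, and the calls over all genes were 11, 7 and 22, against 1892 with all libraries. Without LPS female 2, 24 members were called, of which 23 were lower and Adar was higher, where 17.7% of all tested genes were called (8.22% lower and 9.48% higher). Without the 4 libraries with cerebellar signal 0 members were called by limma and 6 had an unadjusted p under 0.05, and the median difference of the 42 was -0.20 in place of -0.43. Of the 42 members 32 were below 0 and 10 above 0 there, against 1 above 0 with all libraries. The 16 members were picked by their fall in a fit that shares libraries with this one, so their sign is not separate evidence. Their differences there were all below 0, from -1.47 to -0.16 with a median of -0.43. The LPS group is 1 library in that fit, so each SE and p given without these 4 libraries takes its spread from the LPS+DMA and PBS groups and assumes that the lone LPS library varies like them. With the choroid plexus markers as a covariate, or forebrain minus cerebellar markers, 0 members and 0 genes in all were called by limma. At an unadjusted limma p under 0.05 there were 7 and 11 members. The median of the 42 was -0.31 and -0.26, and that of the 16 was -0.64 in each fit.

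**Figure D2:**
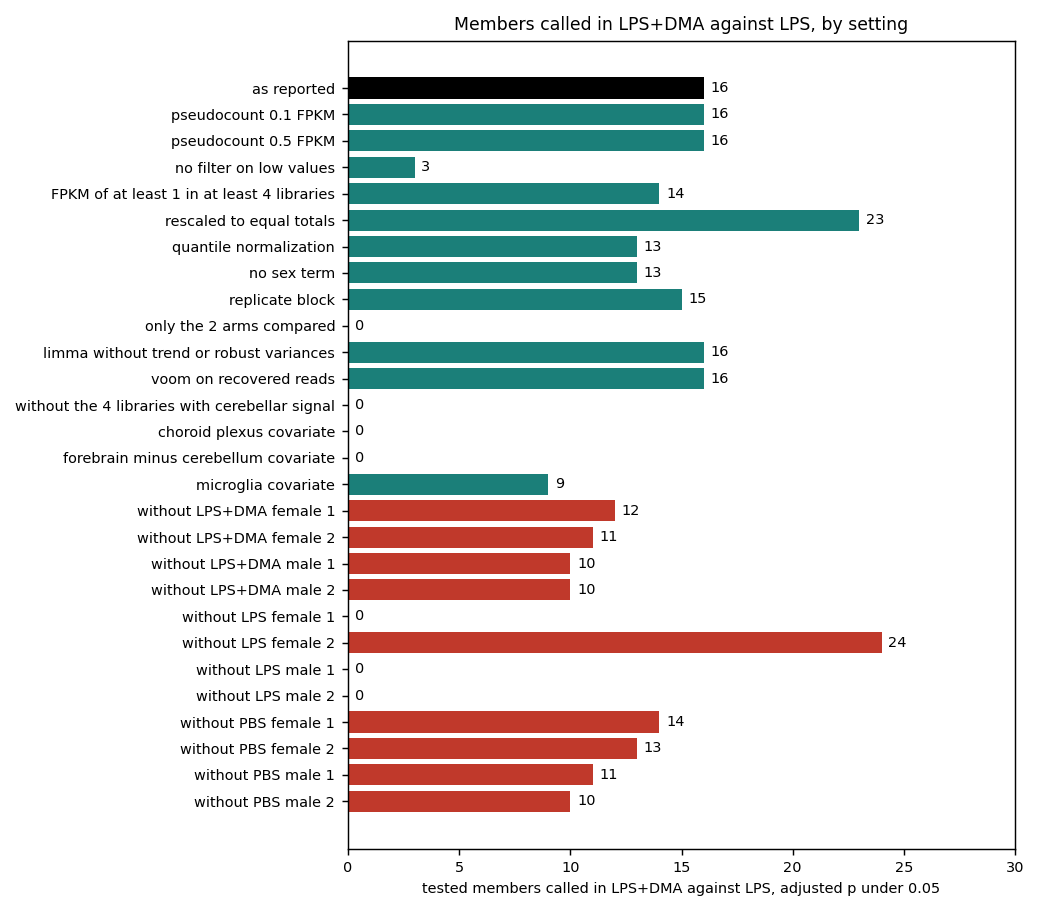
Number of the 42 tested members called in LPS+DMA against LPS brains (horizontal axis, from 0) as reported (black, 16), under other processing settings (green) and with 1 library left out (red). The count is 0 without LPS female 1, LPS male 1 or LPS male 2 and 24 without LPS female 2, which includes Adar as the only member called higher.

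LPS female 2 is the LPS library without cerebellar signal, and it also stood apart in ribosomal RNA, at 0.039% of reads against 2.88% to 9.79% in the other 11 libraries. The part of either in its values was not tested. It held the lowest value of the LPS group for 26 of 42 members, where it was lowest for 34.0% of all tested genes. It was above the 4 LPS+DMA libraries for 23 of 42 members, where it was so for 16.3% of all tested genes. LPS female 1, LPS male 1 and LPS male 2 were above the LPS+DMA libraries for 31, 35 and 30 members, where they were so for 24.0%, 25.1% and 24.3% of all tested genes. PBS female 1 carries cerebellar signal without LPS. It was the highest PBS library for 9 and the lowest for 11 of the 42 members, where it was highest for 24.8% and lowest for 26.4% of all tested genes.

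Markers of other cell types moved with the groups as well. In LPS+DMA against LPS brains 7 of 10 choroid plexus markers fell and 7 of 8 forebrain neuron markers rose, and all 10 and all 8 had a difference on that side of 0. The summed choroid plexus level was 5.20 to 432 FPKM in LPS+DMA brains, 190 to 1818 FPKM in LPS brains and 6.08 to 343 FPKM in PBS brains. Red blood cell markers summed to 29.0 to 296 FPKM in LPS+DMA brains, 243 to 946 FPKM in LPS brains and 71.1 to 116 FPKM in PBS brains. Of the 9 microglia markers 3 fell, and their sum was 51.4 to 104 FPKM in LPS+DMA brains, 121 to 171 FPKM in LPS brains and 88.9 to 116 FPKM in PBS brains. As a covariate, each marker list entered by its mean log2(FPKM + 1) and not by its sum. For microglia markers that mean was 1.86 to 3.30 in LPS+DMA, 3.28 to 3.89 in LPS and 3.05 to 3.51 in PBS brains. LPS+DMA and LPS means thus overlapped where the sums did not. With the microglia markers as a covariate 9 members were called, namely Isg15, Bst2, Ifit3, Ifit3b, Ifi27, Ifi27l2a, Gbp3, Ifitm3 and Lgals3bp, where 7.85% of all tested genes were called (2.38% lower and 5.47% higher). Astrocyte markers (2 of 6 fell) summed to 283 to 389 FPKM in LPS+DMA brains, 405 to 669 FPKM in LPS brains and 338 to 462 FPKM in PBS brains. Oligodendrocyte markers (1 of 6 fell) summed to 413 to 944 FPKM in LPS+DMA brains, 996 to 1939 FPKM in LPS brains and 515 to 1412 FPKM in PBS brains. For both lists the LPS+DMA and LPS sums did not overlap, nor did those of the microglia markers. The mean log2(FPKM + 1) of the oligodendrocyte markers did overlap, at 6.89 in LPS+DMA male 2 and 6.83 in LPS female 2. Brain endothelium markers (1 of 8 fell) summed to 95.4 to 136 FPKM in LPS+DMA brains, 130 to 155 FPKM in LPS brains and 88.2 to 105 FPKM in PBS brains. Monocyte and neutrophil markers (0 of 4 tested were called) summed to 4.02 to 16.7 FPKM in LPS+DMA and 2.41 to 53.6 FPKM in LPS brains. In PBS brains they summed to 0.322 to 1.59 FPKM. T and NK cell markers (0 of 2 tested were called) summed to 3.13 to 25.0 FPKM in LPS+DMA and 1.54 to 7.67 FPKM in LPS brains. In PBS brains they summed to 5.96 to 10.7 FPKM. In bulk brain RNA, fewer cells of a type and less RNA per cell cannot be told apart. Beyond these covariate fits, the part of these cell types in the members' difference was not tested.

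**Figure D3:**
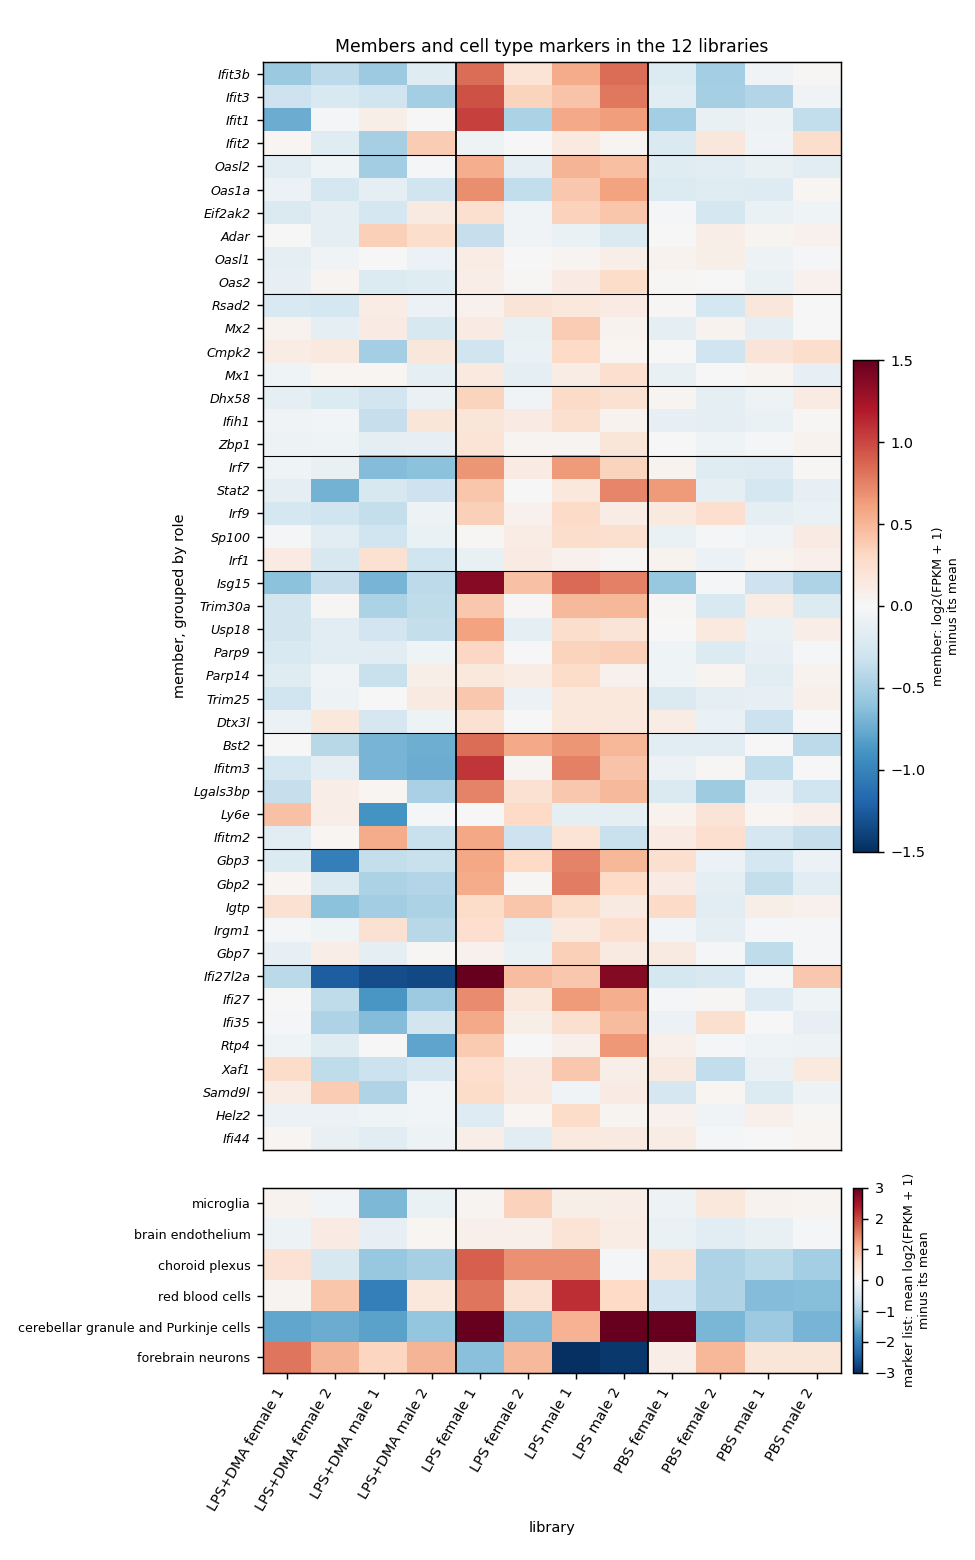
Heat map of the 47 members (rows, grouped by role) in the 12 libraries (columns, LPS+DMA, LPS and PBS from left to right) as log2(FPKM + 1) minus the row mean, with 6 marker lists below as the mean of their genes on a wider colour scale. LPS female 1, LPS male 1 and LPS male 2 hold the highest values of many members and also carry the high cerebellar and low forebrain rows, and PBS female 1 also has a high cerebellar row.

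Against PBS, LPS alone gave higher values of most members, but none passed the threshold. In LPS against PBS brains 0 of 42 members were called, where 0.0102% of all tested genes (2 genes) were called, and limma voom on the recovered reads also called 0 members. The difference was above 0 for 38 members, against 48.3% of all tested genes, with a median of 0.26 against -0.01. At an unadjusted limma p under 0.05 there were 17 members, all higher in LPS, where 4.55% of all tested genes were higher at that limit. The 4 LPS libraries lay above the 4 PBS libraries for 12 members, against 3.59% of all genes, and below them for Adar, against 3.3%. Without LPS female 2, 12 members were called and all were higher, among 672 genes called in all. Without the 4 libraries with cerebellar signal the median of the members was 0.05, with 25 above 0.

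In LPS+DMA against PBS brains 0 of 42 members were called, and again 0.0102% of all genes (2 genes, both lower) were called, with 0 members by voom. The difference was below 0 for 32 members, against 49.9% of all genes, and the median was -0.10 against 0.00014. At an unadjusted limma p under 0.05 there were 5 members, all lower in LPS+DMA, namely Ifi27l2a, Igtp, Ifi27, Gbp3 and Irf9, where 5.48% of all genes were lower at that limit. PBS female 1 carries cerebellar signal and no LPS+DMA library does. In the fit without the 4 libraries that carry it, these 5 differed by -1.16, -0.36, -0.44, -0.32 and -0.27, in the same order. The median of the 42 members was -0.09 there, with 31 below 0. The 95% interval of the difference lay within 1 log2 unit of 0 for 41 of 42 members, the exception being Ifi27l2a at -1.05 with an interval of -1.87 to -0.24. The 4 LPS+DMA libraries lay below the 4 PBS libraries for 2 members, Ifi27l2a and Usp18, where 2.93% of all tested genes did so. The 3 comparisons share libraries, so a member low in PBS or high in LPS enters more than 1 of them.

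**Figure D4:**
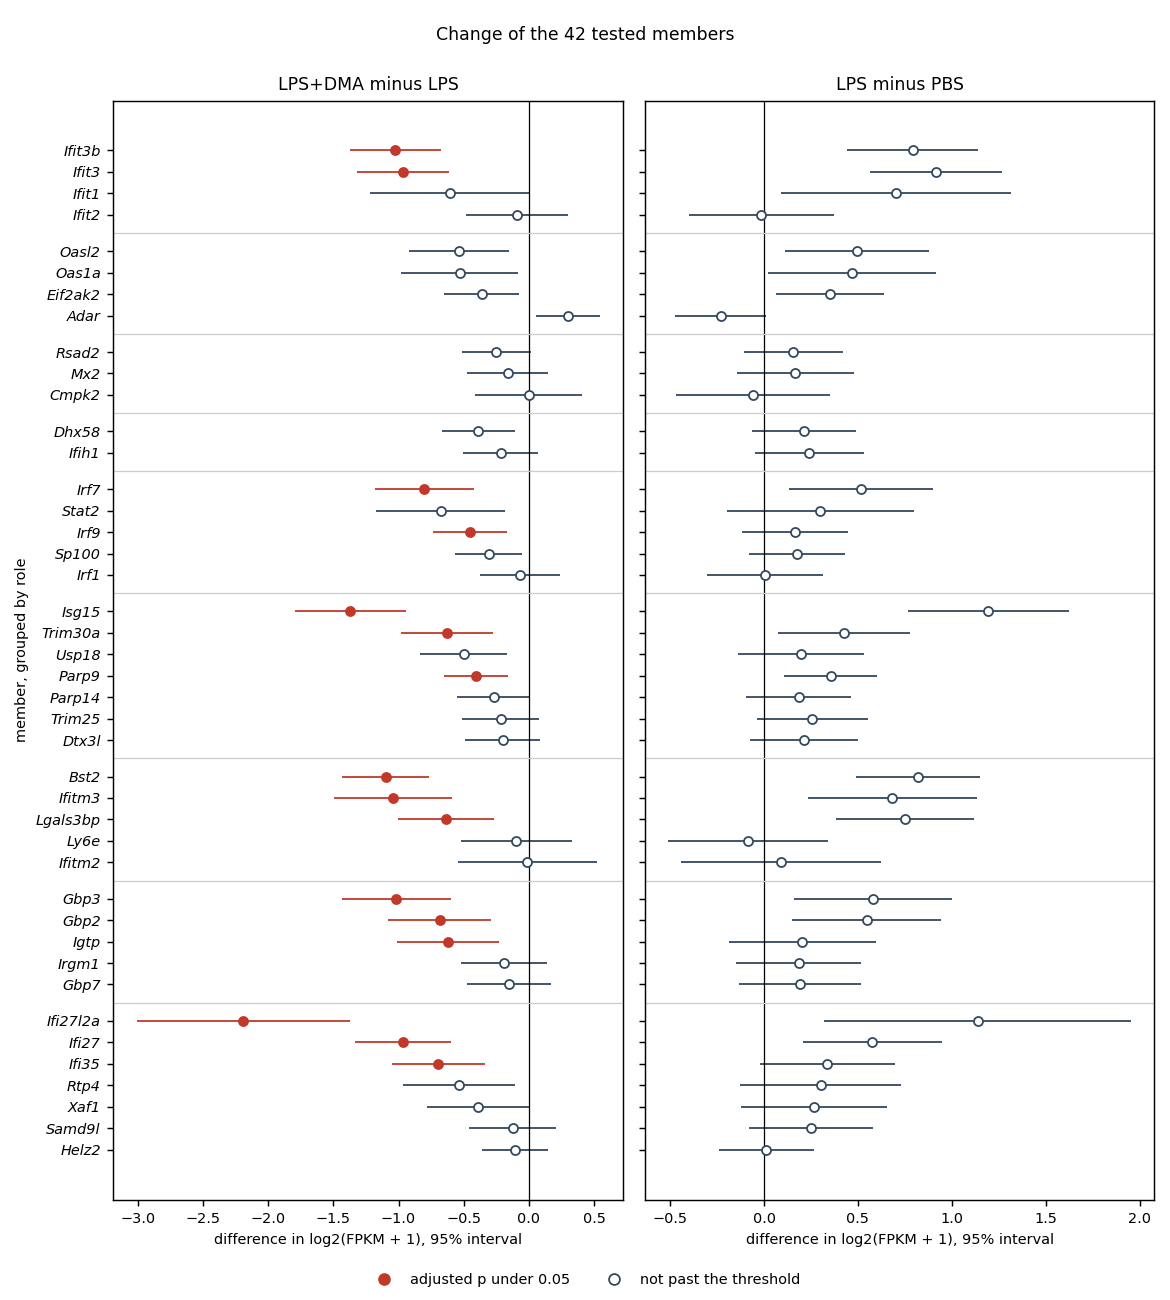
Difference in log2(FPKM + 1) with its 95% interval for the 42 tested members, grouped by role from IFIT family (top) to other interferon-induced genes (bottom), in LPS+DMA minus LPS (left) and LPS minus PBS (right), filled red past an adjusted p of 0.05. On the left 41 points lie below 0 and 16 are filled, from -2.19 for Ifi27l2a to -0.41 for Parp9, and on the right 38 lie above 0 and none is filled.

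The secreted and conjugated ubiquitin-like protein ISG15 and the enzymes around it held the difference second in size to that of Ifi27l2a. Of these 7 genes 3 fell in LPS+DMA against LPS brains (Isg15, Trim30a and Parp9) and all 7 had a difference below 0. Isg15 itself (ENSMUSG00000035692, chromosome 4, 156283912-156285253, minus strand, GRCm39) is attached to proteins during the antiviral response. Values within a group are given in the order female 1, female 2, male 1, male 2. Isg15 stood at 1.17, 1.60, 1.04 and 1.53 FPKM in LPS+DMA brains, 7.55, 3.51, 5.001 and 4.61 FPKM in LPS brains and 1.24, 2.27, 1.67 and 1.41 FPKM in PBS brains. The LPS libraries lay above all other 8, and LPS+DMA and PBS libraries overlapped. Its mean was 1.34 ± 0.274 FPKM in LPS+DMA, 5.17 ± 1.71 FPKM in LPS and 1.65 ± 0.452 FPKM in PBS brains (SD, n = 4 each). The difference was -1.37 ± 0.20 (SE), adjusted p = 0.0172 for LPS+DMA against LPS, and 1.20 ± 0.20 (SE), adjusted p = 0.127 for LPS against PBS, both from limma. Without the 4 libraries with cerebellar signal it was -0.86 ± 0.26 (SE) for LPS+DMA against LPS.

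The promoter of Isg15 carries 3 overlapping copies of the response element core, and is shown because it belongs to the member with the second largest difference. The 250 bases before the start, from RefSeq on GRCm38.p6 (chr4:156200819-156201068, minus strand), read 5′ to 3′ on the gene's strand with the core in capitals:
Isg15: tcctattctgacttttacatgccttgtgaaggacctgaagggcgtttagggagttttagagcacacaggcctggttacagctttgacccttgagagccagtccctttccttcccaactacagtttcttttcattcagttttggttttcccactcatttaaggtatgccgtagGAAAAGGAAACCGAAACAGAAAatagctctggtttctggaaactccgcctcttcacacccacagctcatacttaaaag

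Trim30a encodes a tripartite-motif protein that restrains Toll-like receptor signalling. Trim30a stood at 0.399, 0.708, 0.215 and 0.299 FPKM in LPS+DMA brains, 1.24, 0.710, 1.36 and 1.39 FPKM in LPS brains and 0.716, 0.442, 0.8291 and 0.468 FPKM in PBS brains. LPS+DMA values lay below LPS values, by a narrow margin between LPS+DMA female 2 and LPS female 2, and the difference was -0.63 ± 0.16 (SE), adjusted p = 0.0362 by limma. That difference was -0.24 without the 4 libraries with cerebellar signal. Parp9, whose product forms an ADP-ribosyltransferase complex with that of Dtx3l, averaged 0.904 ± 0.0910 FPKM in LPS+DMA, 1.53 ± 0.274 FPKM in LPS and 0.972 ± 0.103 FPKM in PBS brains (SD, n = 4 each). Its difference for LPS+DMA against LPS was -0.41 ± 0.11 (SE), adjusted p = 0.0465 by limma, and -0.21 without the 4 libraries with cerebellar signal. Parp9 overlaps Dtx3l and the longer noncoding gene Gm15564 on the other strand, and the labels do not settle whether counting used strand, so their reads may be shared. Usp18, the protease that removes ISG15 and damps the receptor, came next to the threshold at -0.50 ± 0.15 (SE), adjusted p = 0.0612 by limma. Parp14, Trim25 and Dtx3l differed by -0.27, -0.21 and -0.20 and were not called.

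Of the IFIT family, RNA-binding proteins that block translation of foreign RNA, Ifit3 and Ifit3b fell and Ifit1 and Ifit2 were not called. The 4 genes lie within 99.3 kb of chromosome 19 (34528094-34627409, GRCm39). Ifit3 stood at 5.70, 6.11, 5.79 and 4.87 FPKM in LPS+DMA brains, 15.2, 9.50, 10.2 and 13.5 FPKM in LPS brains and 6.43, 4.91, 5.14 and 7.06 FPKM in PBS brains. Ifit3b stood at 1.74, 2.07, 1.76 and 2.54 FPKM in LPS+DMA brains, 6.19, 3.64, 4.91 and 6.17 FPKM in LPS brains and 2.49, 1.83, 2.89 and 3.09 FPKM in PBS brains. For both genes the LPS libraries lay above all other 8, and LPS+DMA and PBS libraries overlapped. Ifit3 differed by -0.96 ± 0.16 (SE), adjusted p = 0.0186 for LPS+DMA against LPS and by 0.91 ± 0.16 (SE), adjusted p = 0.142 for LPS against PBS, by limma. Ifit3b differed by -1.03 ± 0.16 (SE), adjusted p = 0.0182 for LPS+DMA against LPS and by 0.79 ± 0.16 (SE), adjusted p = 0.180 for LPS against PBS, by limma. Without the 4 libraries with cerebellar signal the LPS+DMA against LPS differences were -0.68 ± 0.26 (SE) for Ifit3 and -0.75 ± 0.26 (SE) for Ifit3b. The longest transcripts of these genes are 98% identical over 1697 aligned bases, so reads may be split between them and they are not independent of each other. Ifit1 differed by -0.61 ± 0.28 (SE), adjusted p = 0.179 by limma, with LPS female 2 at 1.00 FPKM against 3.11 to 4.63 FPKM in the other LPS libraries. Ifit2 differed by -0.09 (adjusted p = 0.769, limma) and its groups overlapped throughout.

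Ifit3 carries 2 cores on the strand opposite to the gene, written here as the reverse complement, in the 250 bases before its start (chr19:34583279-34583528, plus strand, GRCm38.p6, RefSeq). The stretch is shown as that of the most highly expressed IFIT gene, with the cores in capitals:
Ifit3: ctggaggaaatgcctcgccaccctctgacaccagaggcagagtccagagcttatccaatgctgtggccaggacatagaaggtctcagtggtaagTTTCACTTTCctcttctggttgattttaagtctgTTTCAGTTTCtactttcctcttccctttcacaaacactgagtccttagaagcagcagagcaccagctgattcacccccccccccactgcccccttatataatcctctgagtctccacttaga

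Membrane restriction and surface proteins gave 3 of 5 calls, all lower in LPS+DMA than in LPS. Bst2 (ENSMUSG00000046718, chromosome 8, 71986899-71990100, minus strand, GRCm39) encodes tetherin, which holds budding virus at the cell surface. Bst2 stood at 3.83, 2.58, 1.96 and 1.87 FPKM in LPS+DMA brains, 7.54, 6.07, 6.60 and 5.74 FPKM in LPS brains and 3.26, 3.30, 3.77 and 2.65 FPKM in PBS brains. The LPS libraries lay above all other 8, with the lowest at 5.74 FPKM against at most 3.83 FPKM elsewhere. Its difference was -1.10 ± 0.15 (SE), adjusted p = 0.0172 for LPS+DMA against LPS and 0.82 ± 0.15 (SE), adjusted p = 0.144 for LPS against PBS, by limma. Without the 4 libraries with cerebellar signal it was -0.86 ± 0.30 (SE) for LPS+DMA against LPS. Bst2 was among the 8 members called with any 1 library left out other than the 3 LPS libraries with cerebellar signal.

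Its promoter (250 bases before the start, chr8:71537473-71537722, minus strand, GRCm38.p6, RefSeq) holds 2 overlapping cores in capitals, and a gamma-activated site match that runs into the first of them:
Bst2: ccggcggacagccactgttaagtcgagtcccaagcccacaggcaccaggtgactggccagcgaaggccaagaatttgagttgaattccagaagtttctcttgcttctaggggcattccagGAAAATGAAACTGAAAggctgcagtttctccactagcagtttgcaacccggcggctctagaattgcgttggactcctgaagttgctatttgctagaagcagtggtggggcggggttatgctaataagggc

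Ifitm3 blocks virus entry from endosomes. Ifitm3 stood at 11.1, 12.1, 7.97 and 7.65 FPKM in LPS+DMA brains, 29.5, 13.95, 23.6 and 18.5 FPKM in LPS brains and 12.6, 13.7, 10.3 and 13.6 FPKM in PBS brains. LPS libraries lay above the other 8, with LPS female 2 nearest to them. Its difference was -1.04 ± 0.21 (SE), adjusted p = 0.0213 for LPS+DMA against LPS by limma, and -0.31 ± 0.23 (SE) without the 4 libraries with cerebellar signal. Against PBS the LPS difference was 0.68 ± 0.21 (SE), adjusted p = 0.311 by limma, and it turned to -0.10 without those 4 libraries. Ifitm2, a close relative in the same cluster on chromosome 7, stood at 2.73, 3.22, 5.08 and 2.29 FPKM in LPS+DMA brains, 5.18, 2.35, 3.77 and 2.30 FPKM in LPS brains and 3.51, 3.93, 2.48 and 2.28 FPKM in PBS brains. Its groups overlapped, and its difference of -0.01 ± 0.24 (SE), adjusted p = 0.981 by limma changed sign under several settings. The longest transcripts of Ifitm2 and Ifitm3 are 76.4% identical over 618 aligned bases. Lgals3bp, a secreted glycoprotein that binds galectins, fell by 0.64 ± 0.17 (SE), adjusted p = 0.0387 by limma. Its difference was -0.44 without the 4 libraries with cerebellar signal. Ly6e, a surface protein with roles in virus entry, differed by -0.10 and was not called. Over all 12 libraries Ly6e and Adar had the highest mean levels of the members, at 27.4 and 26.9 FPKM, a gap smaller than the spread within groups, and Ifi27 followed at 18.0 FPKM.

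Among the interferon-induced GTPases, which attack the vacuoles of intracellular pathogens, Gbp3, Gbp2 and Igtp fell and Irgm1 and Gbp7 were not called. Gbp3 stood at 1.59, 0.468, 1.33 and 1.37 FPKM in LPS+DMA brains, 3.49, 2.68, 4.02 and 3.22 FPKM in LPS brains and 2.54, 1.82, 1.49 and 1.81 FPKM in PBS brains. The LPS libraries lay above all others. Its difference was -1.02 ± 0.19 (SE), adjusted p = 0.0203 for LPS+DMA against LPS and 0.58 ± 0.19 (SE), adjusted p = 0.324 for LPS against PBS, by limma. These were -0.85 and 0.53 without the 4 libraries with cerebellar signal. Gbp2 stood at 2.13, 1.62, 1.20 and 1.25 FPKM in LPS+DMA brains, 3.49, 2.09, 4.19 and 2.77 FPKM in LPS brains and 2.31, 1.77, 1.39 and 1.73 FPKM in PBS brains. LPS female 2 lay among the LPS+DMA and PBS values, and the other LPS libraries lay above them. Its difference was -0.69 ± 0.18 (SE), adjusted p = 0.0395 for LPS+DMA against LPS by limma, and -0.16 ± 0.24 (SE) without the 4 libraries with cerebellar signal. Igtp fell with an adjusted p of 0.04996 (limma, difference -0.62), the value closest to the threshold, and LPS+DMA female 1 at 2.84 FPKM lay within the LPS range of 2.60 to 3.38 FPKM. Its difference was -0.72 without the 4 libraries with cerebellar signal. Igtp overlaps Irgm2, which had a mean of 1.54 FPKM, on the same strand over 7974 bases, so their reads may be shared. Irgm1 and Gbp7 differed by -0.19 and -0.15.

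Ifi27 and Ifi27l2a, neighbours within 9.47 kb on chromosome 12 that encode small hydrophobic membrane proteins, fell together. Ifi27l2a stood at 1.90, 0.628, 0.527 and 0.498 FPKM in LPS+DMA brains, 16.5, 4.29, 4.08 and 8.99 FPKM in LPS brains and 2.19, 2.28, 2.76 and 4.09 FPKM in PBS brains. LPS+DMA values lay below LPS values, LPS and PBS values met at PBS male 2, and LPS+DMA female 1 stood above the other LPS+DMA libraries, which had 6 to 8 reads each. Its difference of -2.19 ± 0.37 (SE), adjusted p = 0.0188 by limma was the widest of any member, and it was -1.47 ± 0.44 (SE) without the 4 libraries with cerebellar signal. Ifi27 stood at 17.1, 12.9, 8.88 and 11.5 FPKM in LPS+DMA brains, 28.6, 19.3, 27.3 and 25.4 FPKM in LPS brains and 16.8, 17.4, 14.9 and 16.4 FPKM in PBS brains. Each LPS library lay above the other 8. Ifi27 differed by -0.96 ± 0.17 (SE), adjusted p = 0.0192 for LPS+DMA against LPS and by 0.58 ± 0.17 (SE), adjusted p = 0.311 for LPS against PBS, by limma. Without the 4 libraries with cerebellar signal Ifi27 differed by -0.43 in LPS+DMA against LPS and by -0.0040 in LPS against PBS. Ifi35, which binds the adaptor-like protein Nmi, fell by 0.69 ± 0.16 (SE), adjusted p = 0.0290 by limma. Its difference was -0.32 without those 4 libraries. Rtp4, Xaf1, Samd9l and Helz2 differed by -0.54, -0.39, -0.13 and -0.11 and were not called.

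Of the 5 transcription factors, Irf7 and Irf9 fell, and Stat2, Sp100 and Irf1 were not called. Irf7 is the factor that amplifies type I interferon production. Irf7 stood at 0.644, 0.588, 0.0970 and 0.122 FPKM in LPS+DMA brains, 1.73, 0.866, 1.67 and 1.18 FPKM in LPS brains and 0.786, 0.517, 0.501 and 0.740 FPKM in PBS brains. The LPS libraries lay above the other 8, and the 2 LPS+DMA males, with 12 reads each, lay lowest. Its difference was -0.80 ± 0.17 (SE), adjusted p = 0.0241 for LPS+DMA against LPS and 0.52 ± 0.17 (SE), adjusted p = 0.335 for LPS against PBS, by limma. These became -0.33 and 0.046 without the 4 libraries with cerebellar signal. Irf9, the DNA-binding partner of STAT2, stood at 1.63, 1.55, 1.46 and 1.97 FPKM in LPS+DMA brains, 3.03, 2.28, 2.83 and 2.40 FPKM in LPS brains and 2.48, 2.75, 1.86 and 1.92 FPKM in PBS brains. LPS and PBS values overlapped, and LPS+DMA values lay below the LPS values. The difference was -0.45 ± 0.13 (SE), adjusted p = 0.0499 for LPS+DMA against LPS by limma. For Irf9 it was -0.25 without the 4 libraries with cerebellar signal. Stat2 differed by -0.68 ± 0.23 (SE), adjusted p = 0.0802 by limma, Sp100, a nuclear body protein, by -0.31 (adjusted p = 0.113), and Irf1 by -0.07 (adjusted p = 0.784, limma).

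Irf1 is known to respond to type II interferon, and its promoter is shown for contrast: the 250 bases before the start (chr11:53769764-53770013, plus strand, GRCm38.p6, RefSeq) hold a gamma-activated site match, in capitals, and no response element core:
Irf1: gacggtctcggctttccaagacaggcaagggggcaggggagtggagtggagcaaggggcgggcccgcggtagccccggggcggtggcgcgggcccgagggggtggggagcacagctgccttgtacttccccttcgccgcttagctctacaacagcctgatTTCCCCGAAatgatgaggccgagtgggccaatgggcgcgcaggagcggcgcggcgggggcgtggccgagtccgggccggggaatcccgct

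No gene of the OAS family, PKR and RNA editing group was called, and none of the dynamin-like and nucleotide-targeting effectors or nucleic acid sensors. Oasl2, which binds double-stranded RNA, stood at 0.661, 0.759, 0.283 and 0.826 FPKM in LPS+DMA brains, 1.70, 0.669, 1.63 and 1.53 FPKM in LPS brains and 0.628, 0.659, 0.706 and 0.658 FPKM in PBS brains. The LPS libraries other than LPS female 2 lay above all others. It differed by -0.53 ± 0.17 (SE), adjusted p = 0.0744 for LPS+DMA against LPS and by 0.49 ± 0.17 (SE), adjusted p = 0.347 for LPS against PBS, by limma. Eif2ak2 encodes PKR, the kinase that halts translation on double-stranded RNA. Eif2ak2 stood at 1.41, 1.56, 1.34 and 2.10 FPKM in LPS+DMA brains, 2.33, 1.72, 2.57 and 2.75 FPKM in LPS brains and 1.78, 1.34, 1.62 and 1.69 FPKM in PBS brains. LPS+DMA male 2 overlapped the LPS range, and the difference was -0.36 ± 0.13 (SE), adjusted p = 0.102 by limma. Oas1a differed by -0.53 ± 0.20 (SE), adjusted p = 0.115 by limma. Adar, the adenosine deaminase that edits double-stranded RNA, ran the other way at 0.30 ± 0.11 (SE), adjusted p = 0.105 by limma, with 20.8 to 25.7 FPKM in LPS brains below 26.7 to 28.6 FPKM in PBS brains. It overlaps Chrnb2, a neuronal receptor subunit with a mean of 8.79 FPKM, on the other strand.

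Dhx58, a helicase that tunes RNA sensing, stood at 0.421, 0.356, 0.280 and 0.458 FPKM in LPS+DMA brains, 0.982, 0.510, 0.906 and 0.843 FPKM in LPS brains and 0.619, 0.414, 0.488 and 0.712 FPKM in PBS brains. The LPS+DMA libraries lay below the LPS libraries, and it differed by -0.39 ± 0.13 (SE), adjusted p = 0.0753 by limma. Ifih1, the long RNA sensor MDA5, stood at 0.696, 0.713, 0.378 and 0.998 FPKM in LPS+DMA brains, 1.00, 0.911, 1.08 and 0.8291 FPKM in LPS brains and 0.609, 0.584, 0.642 and 0.780 FPKM in PBS brains. LPS values lay above PBS values and overlapped LPS+DMA values at LPS+DMA male 2. Its difference was -0.22 ± 0.13 (SE), adjusted p = 0.305 for LPS+DMA against LPS and 0.24 ± 0.13 (SE), adjusted p = 0.531 for LPS against PBS, by limma. Rsad2, or viperin, which makes a chain-terminating nucleotide, stood at 0.378, 0.344, 0.746 and 0.523 FPKM in LPS+DMA brains, 0.687, 0.843, 0.799 and 0.760 FPKM in LPS brains and 0.632, 0.344, 0.811 and 0.609 FPKM in PBS brains. The groups overlapped, and the difference was -0.25 ± 0.12 (SE), adjusted p = 0.198 by limma. Mx2, a dynamin-like GTPase, stood at 0.438, 0.252, 0.507 and 0.170 FPKM in LPS+DMA brains, 0.506, 0.284, 0.799 and 0.431 FPKM in LPS brains and 0.255, 0.435, 0.258 and 0.387 FPKM in PBS brains. Its groups also overlapped, and it differed by -0.16 ± 0.14 (SE), adjusted p = 0.479 by limma. Cmpk2, a mitochondrial nucleotide kinase next to Rsad2, stood at 6.01, 6.14, 3.53 and 6.31 FPKM in LPS+DMA brains, 4.24, 5.05, 6.93 and 5.61 FPKM in LPS brains and 5.45, 4.26, 6.38 and 6.80 FPKM in PBS brains. It differed by -0.00 with a 95% interval of -0.41 to 0.41, and LPS+DMA male 1 stood apart from the other LPS+DMA libraries.

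Response element cores were common in the promoters of the members. The core searched was GAAA, any 2 bases, GAAA, on both strands, in 250 bases before to 50 bases after the start in RefSeq (GRCm38.p6). Promoters of 35 of the 47 members were in that table. The core lay in 19 of 43 member promoters (44.2%), of 18 genes, and in 1131 of 32851 promoters in all (3.44%). The gamma-activated site, searched as TTC, any 3 bases, GAA, lay in 10 of 43 member promoters (23.3%) and in 8.3% of all promoters. Since the members are named for their response to interferon, this describes the list and not the treatment. The core was found in 9 of 13 members that fell in LPS+DMA against LPS and in 9 of 20 tested members that were not called. Of the 29 matches 24 lay before the start, and 20 of these within 130 bases of it. Overlap with a gamma-activated site occurred in Bst2 and Ifitm3.

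Windows with 10 bases on each side of the matches are given as examples. Gbp3 and Igtp fell in LPS+DMA against LPS, and Oas1a, Ifit1 and Ifitm2 were not called. The search fixed every base of the core outside its middle, so the cores are alike by construction. Their likeness therefore cannot compare members that fell with members that were not called. Coordinates on GRCm38.p6 are chr3:142559989-142560024 (plus strand) for Gbp3, chr11:58199512-58199541 (plus strand) for Igtp, chr5:120907520-120907555 (minus strand) for Oas1a, chr19:34640775-34640823 (plus strand) for Ifit1 and chr7:140955988-140956017 (minus strand) for Ifitm2, each read on the gene's strand with the cores in capitals:
Gbp3: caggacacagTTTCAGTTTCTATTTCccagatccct
Igtp: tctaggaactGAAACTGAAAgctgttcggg
Oas1a: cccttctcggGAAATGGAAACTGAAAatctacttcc
Ifit1: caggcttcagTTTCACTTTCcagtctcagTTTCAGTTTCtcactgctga
Ifitm2: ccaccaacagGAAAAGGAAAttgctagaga

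**Figure D5:**
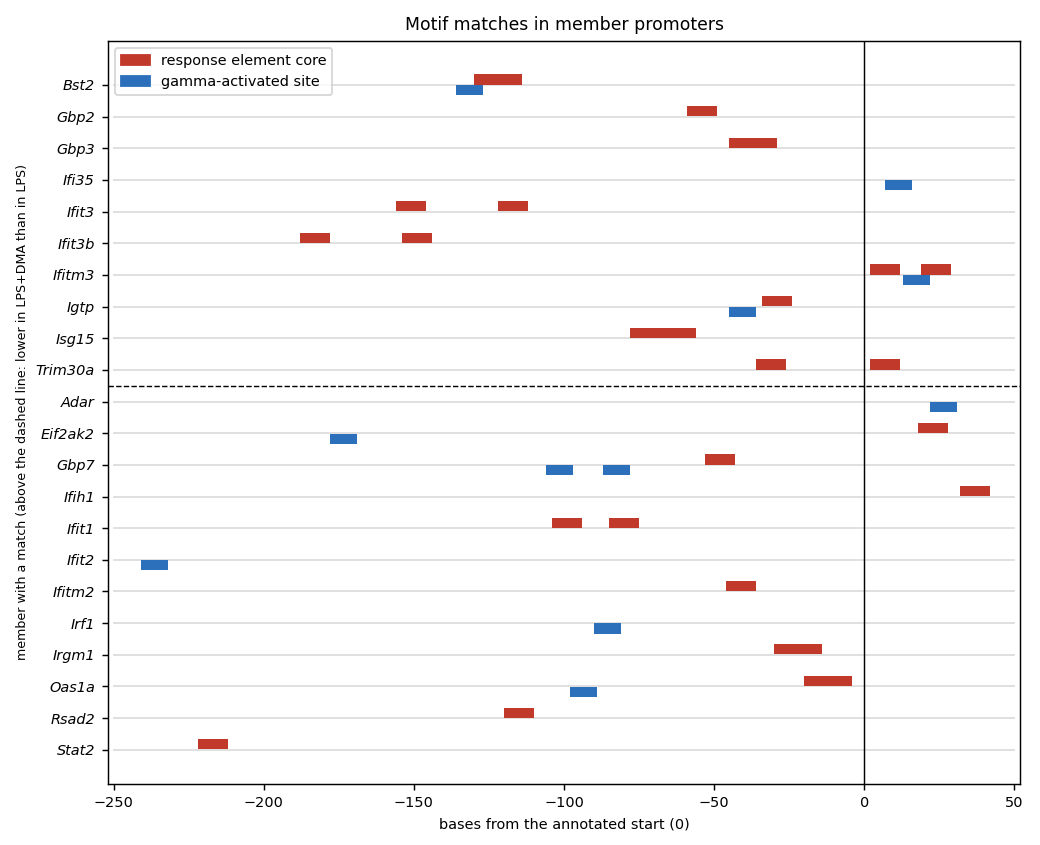
Position of response element cores (red) and gamma-activated site matches (blue) in bases from the annotated start (horizontal axis, start at 0) for the members that have a match, with members that fell in LPS+DMA against LPS above the dashed line. Among the members with a core, most on each side of the line have 1 within 130 bases before the start. Below the line, the cores of Eif2ak2 and Ifih1 lie after the start and that of Stat2 222 bases before it. Adar, Ifit2 and Irf1 below the line and Ifi35 above it have only a gamma-activated site match.

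The interferons themselves were at or near 0. Of 21 interferon ligand genes none reached the test, 18 had 0 reads in all 12 libraries, and the highest count was 8 reads, for Ifnab. Ifnb1 and Ifng were among the 18. A count of 0 allows up to 3 reads, so the ligands were not detectable at this depth, which does not show that they are absent. Irf3, a transcription factor that induces interferon, and Ifngr1, a receptor chain for type II interferon, were not called in LPS+DMA against LPS brains, at -0.76 and -0.55, with adjusted p of 0.0518 and 0.0555 by limma.

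Of 12 tested genes of nucleic acid sensing upstream of interferon 1 fell, Unc93b1, which carries Toll-like receptors to endosomes, at -0.79 ± 0.15 (SE), adjusted p = 0.0213 by limma. Of 9 tested genes listed as feedback inhibitors 2 fell, and neither is known mainly as an inhibitor: Ube2l6, the conjugating enzyme of ISG15, at -0.56 and Ifi204, a DNA sensor of the interferon-inducible p200 family, at -0.45, with adjusted p of 0.0479 and 0.0440 by limma. Of 41 tested further interferon-stimulated genes outside the 47, a list that also holds Ube2l6 and Ifi204, 11 fell and 0 rose. Over all tested genes 3.88% fell and 5.79% rose. These lists use the same libraries as the members and were not tested with libraries left out. Calls over all genes were 11, 7 and 22 without LPS female 1, LPS male 1 or LPS male 2. Examples are Ccl5, a chemokine that draws T cells, at -1.18, B2m, the light chain of MHC class I, at -1.02, and Parp12 at -0.45, with adjusted p of 0.0240, 0.0240 and 0.0244 by limma. B2m averaged 82.3 ± 29.8 FPKM in LPS+DMA, 161 ± 18.3 FPKM in LPS and 82.3 ± 13.7 FPKM in PBS brains (SD, n = 4 each). None of the genes in these lists was called in LPS against PBS or in LPS+DMA against PBS brains.

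The change of the members did not differ detectably between females and males. The interaction of sex and treatment was called for 0 of 42 members in LPS+DMA against LPS and for 0 in LPS against PBS, where limma called 0% of all genes. At an unadjusted p under 0.05 it was 0 members in each, against 5.15% and 2.51% of all genes. The difference of LPS+DMA against LPS was below 0 in both sexes for 36 members, with a median of -0.34 in females and -0.49 in males. With 2 animals of each sex in a group, these intervals are wide. Sex is also mixed with region signal: LPS male 1, LPS male 2 and LPS female 1 carry cerebellar signal and LPS female 2 does not. Among PBS libraries only PBS female 1 carries it. The part of region signal in the values by sex was not tested.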

How the data were processed

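The authors deposited FPKM per gene for 12 libraries in a single table, on GRCm39. Per the submitters' processing notes fastp, HISAT2 (2.2.1) and featureCounts (2.0.6) were among the tools named, with no roles given there. FPKM times gene length came out as whole multiples of the value of 1 read for 100% of values up to 1000 reads (tolerance 0.1 read), which gave the read totals of 27533386 to 41368753. The deposited FPKM values were tested as log2(FPKM + 1) with limma 3.58.1 (trend and robust variances, R 4.3.3), with group and sex as terms over all 12 libraries, after keeping genes at 0.5 FPKM or more in at least 2 libraries, with Benjamini-Hochberg adjustment and a threshold of 0.05. The members, the other gene lists, the tests and the alternatives were chosen with earlier results of these data known. Members named with the value of each library are, in each role group, the 2 with the smallest p in LPS+DMA against LPS and the 1 with the smallest p in LPS against PBS, the 2 with the largest p over all members, and members with a close copy. Of the other pathway lists, up to 3 genes a list with the smallest p are named, and an item withheld from this text is not reported here. The other members are given by their difference or mean alone. No 2 libraries were duplicates: the log2 correlation over the 66 pairs ran from 0.889 to 0.981. The labels describe the mice as separate animals. They give no date or batch. Promoter sequences and motifs were read from RefSeq (GRCm38.p6), and gene coordinates are those of the deposited table. Alternatives were other pseudocounts, filters, scalings, covariates, a replicate block, voom on recovered reads, and each library left out in turn. Intervals and floors from reads cover counting error only.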

Additional observations from a re-analysis of the deposited data

Results flagged for a closer look

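In 7 of 126 sets of 4 libraries (a tested member in a group), 1 library stood far from the other 3, with a gap above Dixon's 95% critical value. Chance gives about 1 in 20 such sets. In LPS+DMA brains, Ifi27l2a was high in female 1 (1.90 FPKM, against 0.498 to 0.628 FPKM in the others), Igtp was high in female 1 (2.84 FPKM, against 1.15 to 1.37 FPKM) and Cmpk2 was low in male 1 (3.53 FPKM, against 6.01 to 6.31 FPKM). In LPS brains, female 2 was low for Oasl2 (0.669 FPKM, against 1.53 to 1.70 FPKM) and for Parp9 (1.13 FPKM, against 1.62 to 1.71 FPKM). In PBS brains, Oas1a was high in male 2 (0.461 FPKM, against 0.244 to 0.259 FPKM) and Stat2 was high in female 1 (7.41 FPKM, against 3.49 to 3.99 FPKM). LPS female 2 is the LPS library without cerebellar signal, and PBS female 1 the PBS library with it.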

How the results depend on the processing

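In LPS+DMA against LPS brains, where 16 members were called, the count was 3 without a filter on low values, 0 with only the 8 libraries of the compared groups, 0 without the 4 libraries with cerebellar signal, 0 with the choroid plexus covariate, 0 with the forebrain minus cerebellum covariate and 9 with the microglia covariate. Leaving out 1 library each gave 0 to 24 members, with 0 without LPS female 1, LPS male 1 or LPS male 2, and 10 without LPS+DMA male 1, LPS+DMA male 2 or PBS male 2. Rescaling to equal totals gave 23 (589 genes higher and 2285 lower in all, against 1133 and 759), voom 16, quantile normalization 13 and the stricter filter 14. In LPS against PBS, where 0 were called, the count was 1 (Ifit3) with the microglia covariate and 0 to 12 with 1 library left out, the 12 without LPS female 2. With a replicate block the counts were 15, 0 and 0 for LPS+DMA against LPS, LPS against PBS and LPS+DMA against PBS. Same-numbered libraries did not deviate together (12 pairs, r from -0.299 to 0.413, 2 above 0.1). With 2 animals of each sex in a group and cerebellar signal in 4 libraries, this cannot exclude a pairing of the animals. The 16 called members had a difference below 0 under each of the 27 settings, other than the stricter filter, which did not test Irf7 and Trim30a. These settings share libraries with the fit that picked the 16, so the shared sign is not separate evidence. Calls over all genes were 0 to 22 in the settings that called 0 members, against 1892 with the reported settings. Without the 4 libraries with cerebellar signal, 17 of 42 members were below 0 in LPS against PBS, against 4 with all libraries. In LPS+DMA against LPS 10 of 42 were above 0 there, against 1 with all libraries. Among only the members named with the value of each library, those that changed sign in LPS against PBS were Ifi27 (-0.0040), Ifitm3 (-0.10), Ifitm2 (-0.27), Irf9 (-0.018), Oasl2 (-0.063) and Mx2 (-0.12). In LPS+DMA against LPS they were Cmpk2 (0.061), Ifitm2 (0.39) and Mx2 (0.084). Ifitm2 also turned with the choroid plexus covariate (0.13 in LPS+DMA against LPS, -0.054 in LPS against PBS) and the forebrain minus cerebellum covariate (0.28 and -0.11), and Cmpk2 in LPS+DMA against LPS with the choroid plexus (0.32) and microglia (0.35) covariates. With 1 library left out, the difference of Ifitm2 ran from -0.24 to 0.16 in LPS+DMA against LPS and from -0.081 to 0.25 in LPS against PBS, and that of Cmpk2 from -0.091 to 0.21 and from -0.16 to 0.021. The cause of these changes was not tested. Over all 40 results and 1066 values, 906 kept direction and side of the threshold.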
